A study of Mus musculus with 4 samples.

Results

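The 5 genes described here are Mpo, Elane, Prtn3, Ctsg and Ms4a3, taken as a named list out of the 32285 genes counted in each library. They were followed in 4 libraries of mouse bone marrow cells sorted for CD45.2, for Sca1 and Kit, and against lineage markers (the stem and early progenitor fraction known as LSK), 10 weeks after a transplantation. The genotypes were a control, Mll3 deleted, Mll4 deleted and Mll3/4 deleted (both genes). Mll3 and Mll4 are histone H3 lysine methyltransferases encoded by Kmt2c and Kmt2d. The labels name neither the alleles and the way they were deleted, nor how many donors or recipients lie behind a library, nor any treatment beyond the transplantation shared by all 4 groups. Cells were read with droplet 3-prime sequencing and antibodies against 6 surface proteins, and values are unique molecular identifiers (UMIs), each standing for 1 captured transcript. Levels are counts per 1e6 UMIs of a library (CPM). Each genotype had 1 library, so differences could be neither tested nor set against replicates, and every interval is a 95% interval for counting error only.

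Primary (azurophil) granules are the first granules that a developing neutrophil or monocyte fills, at the promyelocyte stage, and their proteins are made early and then stored. Myeloperoxidase (Mpo) makes hypochlorous acid from hydrogen peroxide, and neutrophil elastase (Elane), proteinase 3 (Prtn3) and cathepsin G (Ctsg) are serine proteases that kill microbes and cut matrix proteins. Ms4a3 is a membrane protein of granulocyte-monocyte progenitors rather than a granule enzyme. Their transcription in this tissue is known to depend on PU.1, C/EBP, MYB and RUNX factors, and the messages are a usual sign that a progenitor has turned towards the granulocyte and monocyte branches.

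Mpo (ENSMUSG00000009350) lies on chromosome 11 from 87793581 to 87804413 on the plus strand, in GRCm38 coordinates of GENCODE M21. Prtn3 (ENSMUSG00000057729, 79874476 to 79883174) and Elane (ENSMUSG00000020125, 79886247 to 79888215) lie next to each other on the plus strand of chromosome 10, with 3072 bases between them. Ctsg (ENSMUSG00000040314) lies on the minus strand of chromosome 14 from 56099881 to 56102574, in a cluster of mast cell protease and granzyme genes. Ms4a3 (ENSMUSG00000024681) lies on the minus strand of chromosome 19 from 11629496 to 11640851, among other genes of the Ms4a family. Because the members were counted high or low together, sequence before the start of each gene is shown, from RefSeq windows of 250 bases on GRCm38.p6. RefSeq and GENCODE place some starts differently: the last 203 bases of the Mpo window, 65 of the Elane window and 53 of the Prtn3 window lie in a first exon in GENCODE and are not printed. The printed Prtn3 stretch lies within the longer gene span given by GENCODE, outside its exons. The stretches run 5′ to 3′ on the strand of the gene, and capitals mark the letters GGAAGT, a core that PU.1 and other ETS factors bind.
Mpo, chr11:87793534-87793580, plus strand: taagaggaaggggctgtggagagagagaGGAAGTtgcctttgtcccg
Elane, chr10:79886062-79886246, plus strand: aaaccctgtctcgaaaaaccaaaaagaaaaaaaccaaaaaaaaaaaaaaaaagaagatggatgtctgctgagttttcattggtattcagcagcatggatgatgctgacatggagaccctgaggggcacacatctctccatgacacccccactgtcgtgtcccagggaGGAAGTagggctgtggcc
Prtn3, chr10:79879417-79879613, plus strand: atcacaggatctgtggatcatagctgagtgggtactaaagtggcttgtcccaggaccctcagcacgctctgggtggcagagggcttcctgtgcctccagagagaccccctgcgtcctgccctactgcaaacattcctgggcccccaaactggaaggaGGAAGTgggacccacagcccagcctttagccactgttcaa
Ctsg, chr14:56102575-56102824, minus strand: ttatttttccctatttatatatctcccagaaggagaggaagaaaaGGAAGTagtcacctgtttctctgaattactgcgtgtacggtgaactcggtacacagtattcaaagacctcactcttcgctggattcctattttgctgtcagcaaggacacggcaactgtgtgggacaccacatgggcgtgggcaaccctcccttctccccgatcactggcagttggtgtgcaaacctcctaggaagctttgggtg
Ms4a3, chr19:11640852-11641101, minus strand: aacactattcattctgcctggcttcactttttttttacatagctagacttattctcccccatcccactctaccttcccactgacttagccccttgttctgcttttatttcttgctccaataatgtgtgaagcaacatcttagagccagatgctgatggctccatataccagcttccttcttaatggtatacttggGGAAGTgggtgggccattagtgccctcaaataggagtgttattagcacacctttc
The letters GGAAGT, on either strand, were found in 5 of 5 of these windows and in 19.7% of the 32851 RefSeq windows of the same length. The first base lay 222, 83, 93, 205 and 55 bases before the RefSeq start in the order printed. The MYB core AACGG was found in 2 of 5 members, in Elane at 50 and in Prtn3 at 55 bases before the RefSeq start and so in or across the edge of the unprinted exon, against 14.5% of all windows. The RUNX core TGTGGT was found in 1 of 5 (Ctsg, 14.0% of all windows) and the C/EBP letters TTGCNNAA in 0 of 5 (9.56% of all windows). Such matches describe letters only, and none of the deposited data measured binding at these windows.

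Requiring 1000 or more genes and no more than 10% mitochondrial UMIs left 7274 of 7682 in the control, 6101 of 6560 in the Mll3-labelled, 4793 of 7702 in the Mll4-labelled and 4748 of 5136 in the Mll3/4-labelled library. Kept cells held 50792614 to 120700343 UMIs per library, with medians of 8920 (Mll3/4-labelled) to 21400 (Mll4-labelled) UMIs per cell. Between 9 and 22 barcodes were shared by any pair of libraries. Libraries are called by their labels because Kmt2d was counted at 24.6, 21.6, 22.6 and 25.4 CPM (control first, then Mll3, Mll4 and Mll3/4 labels), so it was not clearly lower under either Mll4 label. Kmt2c was at 68.9, 35.3, 61.3 and 42.3 CPM. Counts from the 3-prime end check a deletion only where it removes that end, and the deleted parts are not given in the sources used here. The sort markers Kit (215 to 362 CPM) and Ly6a (93.4 to 255 CPM) were counted in every library. The Mll3/4-labelled library stood apart: 4718 of its 4748 cells lay in 3 clusters of B-lineage-like cells, and Cd79a, a B-cell receptor subunit, had a UMI in 99.6% of its cells, although lineage-negative cells were sorted.

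The first comparison asked how much of each message the 4 LSK fractions held. All 5 genes were far more abundant in the Mll4-labelled library, far less abundant in the Mll3/4-labelled library, and close to the control in the Mll3-labelled library. Together they took up 0.101% of all UMIs of the control, and 0.126%, 1.02% and 0.0040% under the labels Mll3, Mll4 and Mll3/4.

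Mpo, the peroxidase, was counted at 174 CPM (171 to 176) in the control. With the labels Mll3, Mll4 and Mll3/4 it was at 196 (193 to 199), 3781 (3770 to 3792) and 11.3 CPM (10.4 to 12.3). Its log2 ratios to control were 0.18, 4.44 and -3.94, the middle one being a 21.8-fold higher level. Among the proteases, Elane was at 124 CPM (122 to 126), 171 (169 to 174), 1997 (1989 to 2005) and 9.73 (8.89 to 10.6) in the same order, with log2 ratios of 0.46, 4.01 and -3.67. Elane is the only member whose control and Mll3-labelled levels differed by more than 0.4 on the log2 scale.

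Prtn3, the other protease of the chromosome 10 pair, was at 526 CPM (522 to 530), 691 (686 to 696), 2276 (2268 to 2285) and 12.9 (11.9 to 13.9). Its log2 ratios were 0.39, 2.11 and -5.35, so its Mll4-labelled ratio was the smallest of the 5. Its Mll3/4-labelled ratio was the lowest of the 5, but without the 1 cell of that library richest in members it was the least low, at -6.38 beside -10.82 to -6.82 for the others. Ctsg was at 156 CPM (154 to 159), 177 (175 to 180), 1806 (1798 to 1814) and 5.08 (4.48 to 5.74), with log2 ratios of 0.18, 3.53 and -4.94. Ms4a3, the membrane protein, was at 25.5 CPM (24.6 to 26.4), 24.7 (23.8 to 25.7), 384 (380 to 387) and 0.984 (0.731 to 1.30), with log2 ratios of -0.04, 3.91 and -4.68. For Mpo, Elane, Prtn3 and Ctsg the order from high to low was Mll4-labelled, Mll3-labelled, control and Mll3/4-labelled. For Ms4a3 the control stood above the Mll3-labelled library, with overlapping intervals.

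**Figure D1:**
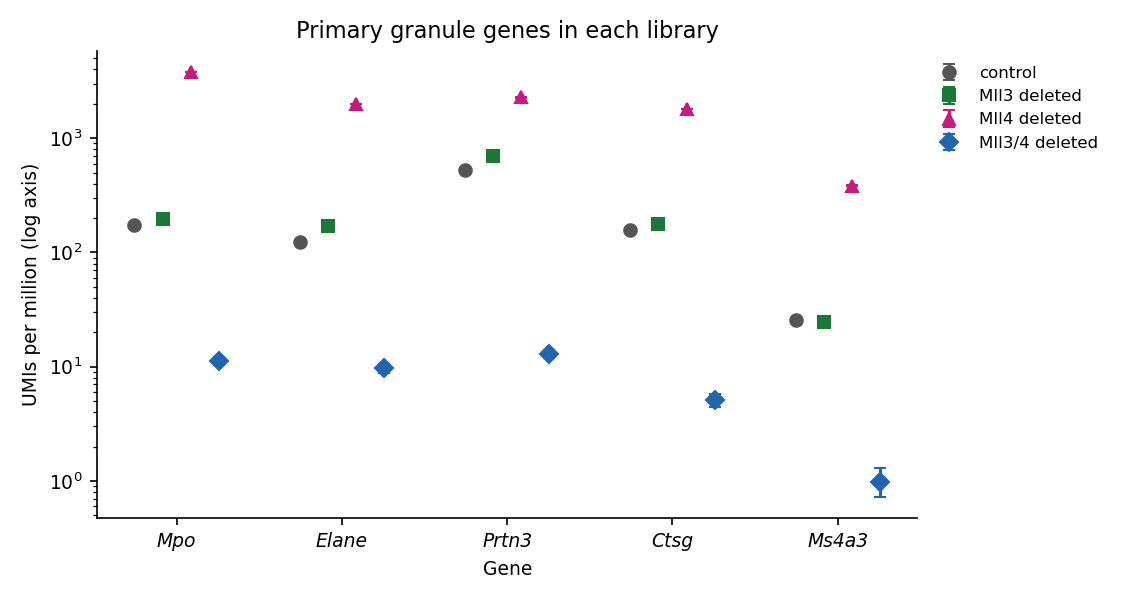
Level of each gene in each library, in CPM on a log axis, with exact Poisson intervals that are mostly smaller than the symbols. For all 5 genes the triangle of the Mll4 deleted library lies highest and the diamond of the Mll3/4 deleted library lowest, from 384 down to 0.984 CPM for Ms4a3.

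Set beside the 6125 genes that averaged 20 CPM or more, 5 of 5 members were at least 2-fold higher in the Mll4-labelled library, where 4.98% of all genes were, and 0 of 5 were 2-fold lower, against 3.28%. In the Mll3/4-labelled library 5 of 5 were at least 2-fold lower, where 10.5% of all genes were, and 0 of 5 were higher, against 6.07%. Under the Mll3 label 0 of 5 were 2-fold higher (1.09% of all genes) and 0 of 5 lower (0.457%). The member medians were 0.18, 3.91 and -4.68 on the log2 scale, beside medians over all genes of 0.10, -0.13 and -0.11. Ranked from the highest ratio in the Mll4-labelled library, Mpo stood at 25, Elane at 31, Ms4a3 at 33, Ctsg at 38 and Prtn3 at 103 of 6125. In a mix of cells, fewer cells with a message and less message per cell give the same drop in a library level, so the cells were taken apart next.

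Marker lists of mast/basophil, monocyte/macrophage, neutrophil precursor and dendritic cells moved with the members under the Mll4 and Mll3/4 labels, and some other lists did not. The 10 mast/basophil markers summed to 112 CPM in the control, with Tpsb2 and Tpsab1 at 0, and to 122, 1798 and 5.16 CPM under the labels Mll3, Mll4 and Mll3/4, where 3, 0 and 6 of them were at 0. The 12 monocyte/macrophage markers summed to 348, 351, 2727 and 22.1 CPM and the 8 neutrophil precursor markers to 867, 337, 6160 and 4.23 CPM, with 1 of each list at 0 in the Mll3/4-labelled library (Lyz1 and Cd177). The 9 dendritic markers summed to 965, 1278, 2965.5 and 304 CPM. The 10 B-lineage markers went another way and summed to 56.5, 308, 64.2 and 11300 CPM, with none at 0. For the 6 plasma markers, higher under the Mll4 label but not lower under the Mll3/4 label, the sums were 3100, 5062.5, 11843 and 3332 CPM. The 8 HSC markers summed to 757, 870, 499 and 380 CPM. For the 8 erythroid markers the sums were 593, 768, 502 and 136 CPM, so both lists were below the control under the Mll4 label. The part of these cell types in the library levels was not tested beyond the clusters described here.

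To compare cells of different depth, each cell was thinned at random to 3000 UMIs, which left out 14, 17, 134 and 33 shallower cells of the control, Mll3, Mll4 and Mll3/4 libraries. A cell with at least 1 UMI of a gene among its 3000 is called an expressing cell. The log2 ratio of mean UMIs per cell then splits into a part from the share of expressing cells and a part from the UMIs per expressing cell.

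In the control the members divided into a widespread one and 4 rare ones. Prtn3 had a UMI in 64.9% of control cells (63.8 to 66.0; 92.7% before thinning), at a mean of 2.29 UMIs per expressing cell. Mpo had one in 12% (11.3 to 12.8; 28.9% before thinning), Ctsg in 8.28% (7.65 to 8.94; 18.2%), Ms4a3 in 2.33% (1.99 to 2.70; 7.20%) and Elane in 1.91% (1.61 to 2.26; 5.0%). Elane was the most concentrated: 50% of its control UMIs lay in 17 cells, against 33 cells for Ms4a3, 56 for Ctsg, 65 for Mpo and 958 for Prtn3. The 73 cells richest in a gene, 1% of the library, held 95.4% of Elane and 22.3% of Prtn3 UMIs.

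With the Mll3 label, Mpo, Ctsg and Ms4a3 were found in fewer cells and at more UMIs per expressing cell. The share of Mpo-expressing cells was 8.51% (7.82 to 9.24), with 4.63 UMIs per expressing cell against 2.86 in the control, so a share part of -0.50 stood against a per-cell part of 0.69 on the log2 scale. For Ctsg the share was 5.92% (5.34 to 6.54) and the parts were -0.48 and 0.77. For Ms4a3 it was 1.56% (1.27 to 1.91) and the parts were -0.58 and 0.54. Elane (2.32%, 1.95 to 2.73) and Prtn3 (67.5%, 66.3 to 68.7) had share parts of 0.28 and 0.06 and per-cell parts of 0.42 and 0.36. The library level of Mpo, Ctsg and Ms4a3, close to the control, was thus the sum of parts of opposite sign. These share parts depended on what counted as expressing. At 5 or more UMIs of 3000 they were 0.23, 0.19 and 0.67 for Mpo, Ctsg and Ms4a3. These rest on 113, 110 and 20 Mll3-labelled cells against 115, 115 and 15 control cells, with overlapping intervals of the shares. The lower shares under the Mll3 label were thus seen when cells with few UMIs were counted, and not at 5 or more UMIs.

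With the Mll4 label the share of expressing cells was 55.7% for Mpo (54.2 to 57.1), 36.9% for Elane (35.5 to 38.3), 52.2% for Prtn3 (50.8 to 53.6), 45.7% for Ctsg (44.2 to 47.1) and 23.7% for Ms4a3 (22.5 to 25). Before thinning these shares were 90.5%, 71.2%, 81.1%, 74.1% and 39.9%. As a split of mean UMIs, for Elane and Ms4a3 nearly the whole ratio lay in the share, with parts of 4.27 and 3.35, while the per-cell parts were -0.38 and 0.40. Mpo had parts of 2.21 and 2.0 and Ctsg of 2.46 and 1.25. Prtn3 differed from the rest in having fewer expressing cells than the control (share part -0.31) at 7.45 UMIs per expressing cell (per-cell part 1.70). That depended on what counted as expressing: at 5 or more UMIs of 3000 its share was 20.6% against 4.27% in the control, a share part of 2.27. Many of the extra cells held 1 or 2 UMIs. Low counts were also common in plasma-like and innate lymphoid-like cells of this library, as the clusters below show.

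**Figure D2:**
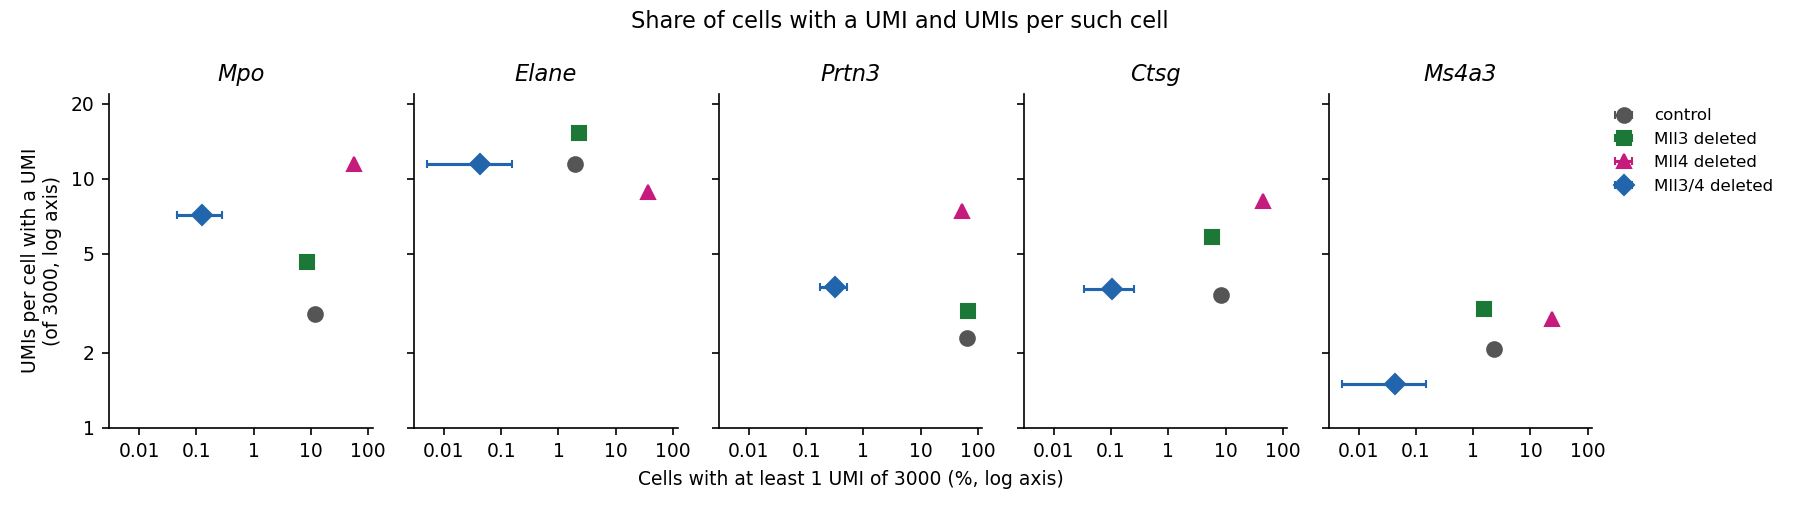
Share of cells with at least 1 UMI among 3000 (horizontal, percent, log axis, with exact binomial intervals) against mean UMIs per such cell (vertical, log axis) for each gene, 1 symbol per library. The Mll4 deleted library lies to the right of the control for 4 genes and above it for Prtn3, at 52.2% and 7.45 UMIs, and the Mll3/4 deleted library lies at 0.318% of cells or fewer for every gene.

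Cells with at least 10 of 3000 UMIs of a gene separate the number of strong expressers from their level. Mpo had 68 such cells in the control (0.937% of cells). Under the labels Mll3, Mll4 and Mll3/4 there were 88 (1.45%), 983 (21.1%) and 1. The median in these cells was 15, 17.5 and 27 UMIs in the first 3 libraries. Elane had 54, 65, 595 and 1 such cells, with medians of 17.5, 24 and 19 UMIs in the first 3 libraries. Prtn3 had 67, 99, 739 and 1, with medians of 17, 19 and 18. Ctsg had 54, 78, 822 and 1, with medians of 14, 17.5 and 15. Of the 822 Ctsg cells 645 lay in cluster 10 and 159 in the mast/basophil-like cluster 16, both described with the clusters. The Mll4-labelled library therefore held many more strong expressers of these 4 genes, and among them only Mpo had a median well above that of control strong expressers. Under the Mll3 label the strong expressers were somewhat more frequent and had higher medians for all 4 genes. Ms4a3 rarely reached 10 UMIs (1, 5, 8 and 0 cells) and is described by cells with 3 to 9 UMIs, which made up 0.606%, 0.493% and 10.6% of cells in the first 3 libraries.

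**Figure D3:**
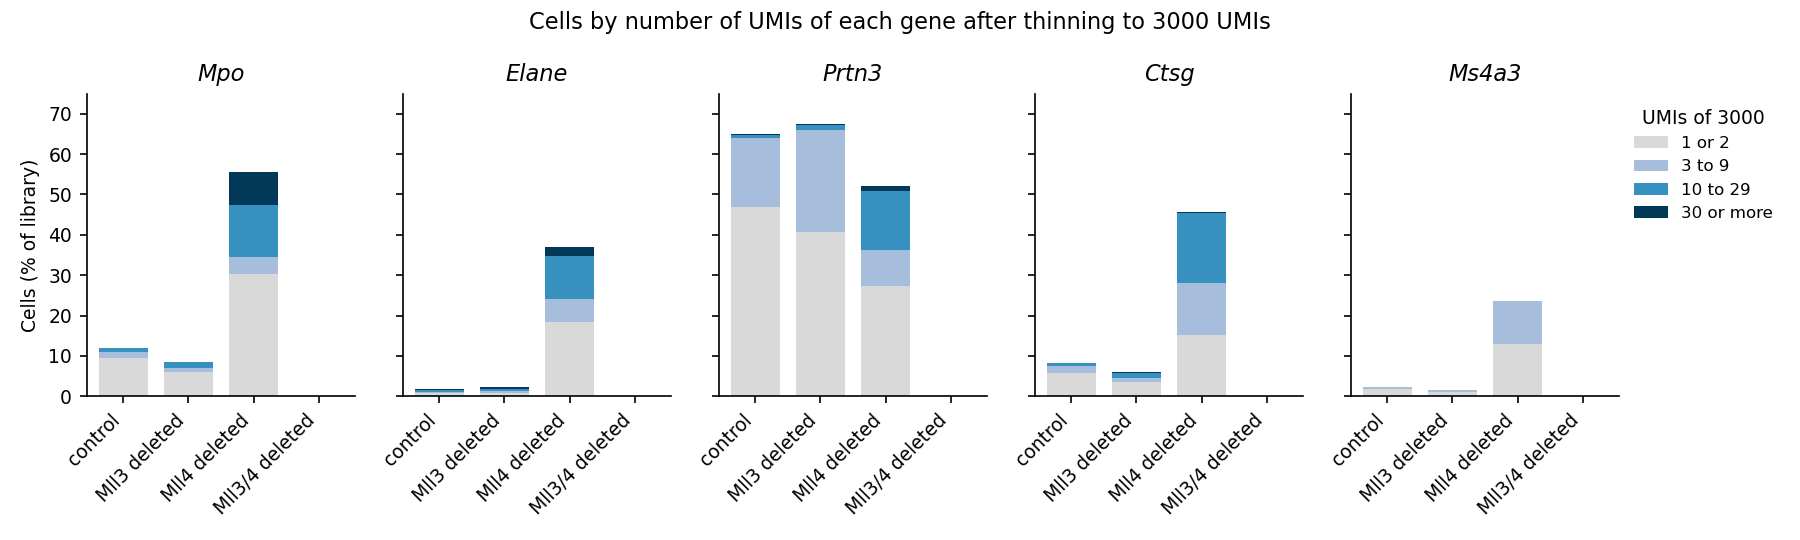
Share of cells (percent of each library) with 1 or 2, 3 to 9, 10 to 29, or 30 or more UMIs of each gene after thinning to 3000 UMIs, stacked per library. Dark segments, the cells with 10 or more UMIs, are visible in the Mll4 deleted library for Mpo (21.1% of cells), Elane, Prtn3 and Ctsg, while Prtn3 in the control and Mll3 deleted libraries is made of light segments.

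The members were found together. At 3 or more UMIs, 93.6% of the 78 Elane cells of the control also had Mpo, 98.7% Prtn3 and 92.3% Ctsg, whereas 38.4% of the 190 Mpo cells had Elane. Of the 1307 Prtn3 cells 9.95% had Mpo. Under the Mll4 label 85.7% of the 1164 Prtn3 cells had Mpo, and 97.3% of the 858 Elane cells did. All 5 members were detected, at 1 UMI or more, in 67 control cells (0.923%), 68 Mll3-labelled cells (1.12%), 838 Mll4-labelled cells (18%) and 1 Mll3/4-labelled cell.

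Surface proteins gave a view that did not use the members. Cells were gated on CD150, CD48 and CD135, and the MPP3 gate (CD150-CD48+CD135-), a multipotent progenitor fraction known for its myeloid bias, held most member UMIs. Of the control UMIs 87.7% of Mpo, 89.3% of Elane, 87.5% of Ctsg and 86.1% of Ms4a3 lay in that gate, which had 44.3% of the cells. For Prtn3 the share was 66.5%, with 10.6% in the HSC gate (CD150+CD48-CD135-). Among cells whose 5 members summed to 30 or more of 3000 UMIs, the MPP3 gate held 71 of 77 in the control, 81 of 94 and 922 of 979 under the Mll3 and Mll4 labels, and the single cell under the Mll3/4 label. CD48 made up 82.5% of the antibody counts of these control cells and 64.3% of those of the other control cells.

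Within the MPP3 gate the Mll3-labelled library was above the control for every member. Mpo was at 303 CPM (299 to 308) in control and 643 (634 to 653) in Mll3-labelled MPP3 cells, a log2 ratio of 1.09. The ratios were 1.38 for Elane, 0.79 for Prtn3, 1.12 for Ctsg and 0.84 for Ms4a3. That gate held 22.2% of Mll3-labelled against 44.3% of control cells, and the HSC gate 44.3% against 23.7%, so near-equal library levels came with a smaller gate of higher level. In the Mll4-labelled library the MPP3 gate held 69.7% of cells, and its ratios were 4.02, 3.55, 2.09, 3.11 and 3.52 in the order Mpo, Elane, Prtn3, Ctsg and Ms4a3. In the Mll3/4-labelled library, where it held 9.77% of cells, mostly B-lineage-like ones unlike the control, they were -1.38, -1.14, -2.84, -2.38 and -2.12. With the cell richest in members left out, a setting added after seeing the data, the median of these 5 moved from -2.12 to -4.56.

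In the HSC and MPP1 gates Prtn3 parted from the other members under the Mll4 label. In the Mll4-labelled HSC gate it was at 201 CPM (192 to 210) against 288 (281 to 295) in the control, and in the MPP1 gate (CD150-CD48-CD135-) at 161 (151 to 171) against 462 (450 to 474), log2 ratios of -0.52 and -1.52, where the other members had ratios of 2.27 to 4.65. In the MPP2 gate (CD150+CD48+CD135-) and the MPP4 gate (CD150-CD135+) it was above the control like the others, at 1078 against 353 and 730 against 389 CPM, log2 ratios of 1.61 and 0.91. In the Mll3-labelled library Prtn3 was above the control in the HSC and MPP1 gates, at 474 (468 to 481) and 720 (706 to 734) CPM, log2 ratios of 0.72 and 0.64. Mpo in the HSC gate was at 4.41 CPM (3.6 to 5.35) in the control, and at 10.6 (9.71 to 11.6) and 112 (105 to 118) under the Mll3 and Mll4 labels. The Mll3 difference depended on the gating: its log2 ratio of 1.26 was -0.51 without centring and 0.28 (-0.13 to 0.72) with the stricter filter, and the thinned share of cells was 1.41% against 1.62% in the control. After thinning, 30.3% of Mll4-labelled HSC-gate cells had an Mpo UMI, close to the 31.1% of plasma-like cells of that library. This level is not set apart from background, whose source was not tested. Elane, Ctsg and Ms4a3 had one in 16.9%, 10.955% and 3.65% of these HSC-gate cells, beside 15.9%, 9.85% and 3.79% of the plasma-like cells. In the Mll4-labelled MPP1 gate the shares were 31.2% for Mpo, 11.8% for Elane, 13.3% for Ctsg and 3.04% for Ms4a3. There 4 of 263 thinned cells had 10 or more Ctsg UMIs. Apart from these, the ratios of 2.27 to 4.65 are not read as more cells making these messages. In the MPP4 gate, which held 43.0% of Mll3/4-labelled cells, 0 Mpo UMIs were counted in 2042 cells against 98.2 CPM in the control, at least 769-fold lower with 3 UMIs set as the floor over the gate. As 4718 of the 4748 cells of that library lay in B-lineage-like clusters, this does not compare multipotent progenitors of both libraries.

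**Figure D4:**
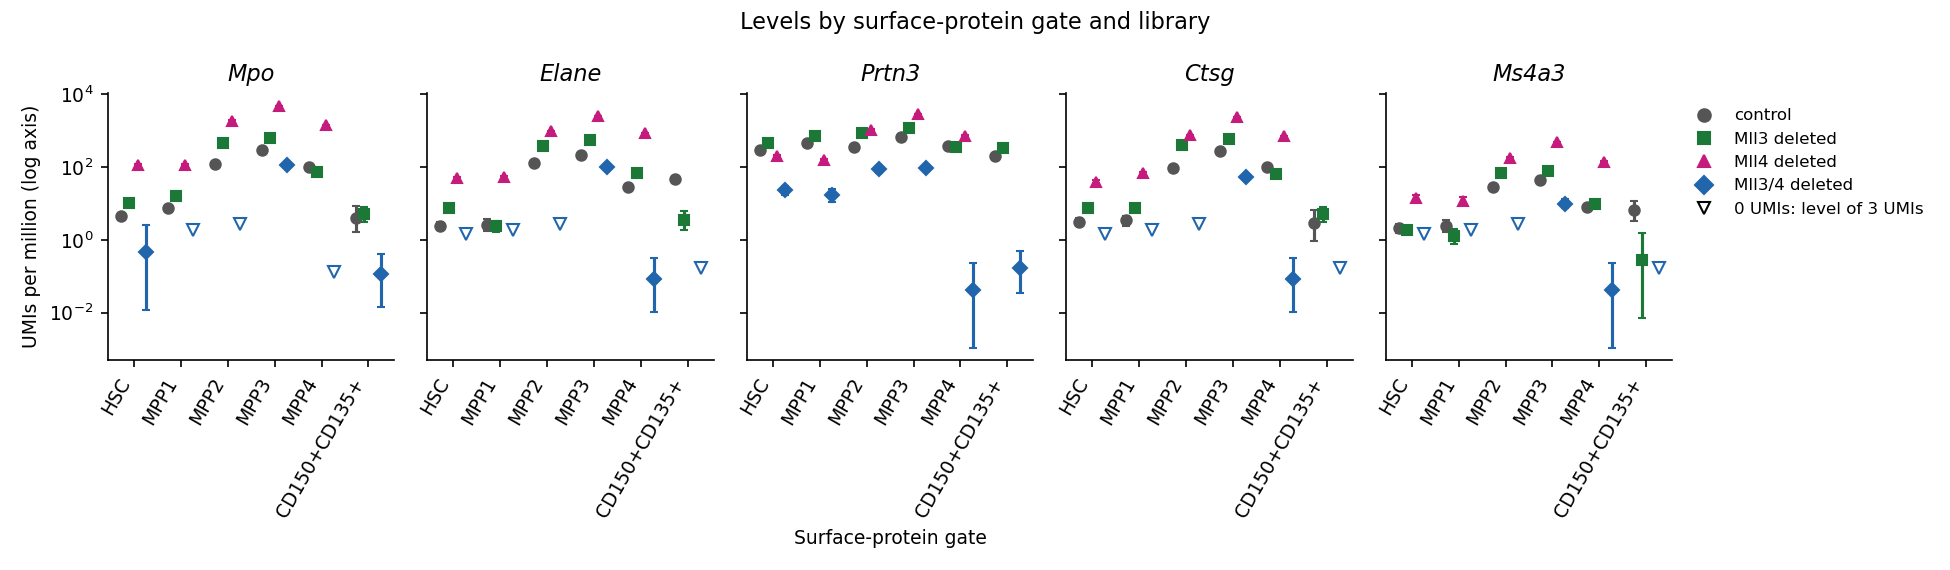
Level of each gene (CPM, log axis, exact Poisson intervals) in each surface-protein gate with at least 100 cells, by library. Open triangles mark gates with 0 UMIs, drawn at the level of 3 UMIs. The MPP3 gate is at or near the top for each gene, and Prtn3 alone lies below the control in the HSC and MPP1 gates of the Mll4 deleted library, at 201 and 161 CPM.

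Clusters were formed on the other genes, without the 5 members, to see which cells carried them. In the control, cluster 9 (111 cells, 1.53% of the library) held 57.8% of Mpo, 82.9% of Elane, 22.1% of Prtn3, 61.1% of Ctsg and 67.8% of Ms4a3 UMIs, at 108 Mpo UMIs per cell. Under the Mll3 label the same cluster, again of 111 cells (1.82%), held 75.7%, 89.0%, 27.5%, 80.0% and 85.3%, at 142 Mpo UMIs per cell. It was left unnamed because stromal genes (Cxcl12, Col1a1, Cdh5) led it beside granulocyte-monocyte markers. Under the Mll4 label cluster 10 (992 cells, 20.7%) held 95.3%, 95.4%, 92.3%, 91.4% and 95.1%, at 438 Mpo UMIs per cell. Its median depth was 45548 UMIs, against 25768 in control and 26012 in Mll3-labelled cluster 9. In CPM, Mpo was at 9101 against 4096 and 5212 in that order. The other members lay closer, with Elane at 4808 against 4201 and 5352 and Prtn3 at 5307 against 4736 and 6671. Ctsg was at 4170 against 3896 and 4977, and Ms4a3 at 921 against 706 and 741. Cluster 10 was led by Tmem178, Itga1, F13a1 and Slpi, held 2 control and 1 Mll3/4-labelled cell besides, so that library and cell type cannot be told apart in it. Its members were mixed differently from those of control cluster 9: per 100 Mpo UMIs it had 52.8 Elane, 58.3 Prtn3, 45.8 Ctsg and 10.1 Ms4a3 UMIs, against 103, 116, 95.1 and 17.2. In Mll3-labelled cluster 9 these were 103, 128, 95.5 and 14.2. The neutrophil precursor-like cluster 12 was led by Ngp, Camp and Ltf, which belong to later granules. It had 104 Mpo UMIs per cell in 68 Mll4-labelled cells and 11.9 in 20 control cells, at median depths of 31610 and 15956 UMIs. In CPM, Mpo was at 2875 against 720 and Ctsg at 1148 against 288 in these cells. Elane was at 2645 against 2639, Prtn3 at 1649 against 2009 and Ms4a3 at 331 against 536.

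Cells taken not to make these messages served as background for the Mll4-labelled and control libraries. Whether their UMIs came from free RNA was not tested. In 132 plasma-like cells of the Mll4-labelled library (median 24336 UMIs) there were 2.95 Mpo, 1.17 Elane, 1.61 Prtn3, 1.32 Ctsg and 0.227 Ms4a3 UMIs per cell, and 31.1%, 15.9%, 14.4%, 9.85% and 3.79% of cells had a UMI after thinning. The ratios there, 39.6 Elane, 54.8 Prtn3, 44.7 Ctsg and 7.71 Ms4a3 UMIs per 100 Mpo UMIs, were near those of cluster 10. Shallower cells showed larger shares from as little RNA: 353 innate lymphoid-like cells (cluster 4, median 7589 UMIs) had 2.47 Mpo, 1.03 Elane, 1.34 Prtn3, 0.921 Ctsg and 0.204 Ms4a3 UMIs per cell, and 56.0%, 31.4%, 34.9%, 28.4% and 6.74% of them had a UMI after thinning. These shares are as high as the 55.7% of the whole library for Mpo and near its 36.9% for Elane, so the Mll4-labelled shares of expressing cells for these genes are not read as numbers of cells making the message. The 985 macrophage-like cells of cluster 15 (median 9488 UMIs) lay close to cluster 4 for Mpo, at 50.6%. In 33 plasma-like cells of the control (median 21244 UMIs) the thinned share was 9.09% for Prtn3 and 0 of 33 for the other members, which allows up to 9.09%. No plasma-like cell of the Mll4-labelled library reached 10 of 3000 UMIs of a member (0 of 132, which allows a share of up to 2.27%), whereas its cells with 1 UMI were common.

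Read against that background, Prtn3 and Ctsg were also high in other cells. Prtn3 was widespread in stem-cell-like cells: in HSC-like cluster 3 it had a UMI in 66.6% of 1065 control cells (63.7 to 69.4) and in 80.1% of 1770 Mll3-labelled cells (78.1 to 81.9) after thinning, while Mpo was at 2.07% and 1.69% and Elane at 0.657% and 0.678%. Its CPM there was 392 in the control and 677 in the Mll3-labelled library. Mll4-labelled cluster 17 (1017 cells) was led by Gm11770, Slc16a11 and Erp27, with Mecom among its top genes. It was left unnamed, with 1 of the 8 HSC markers raised, against 8 in cluster 3. Prtn3 was also above background in cluster 17, at 48.1% of 1009 thinned cells (44.9 to 51.2). It had 7.19 UMIs per cell there, beside 1.61 in the plasma-like cells of similar depth. Elane there was near them (14.9%, 1.27 UMIs per cell), while Mpo (36.0%, 4.12) and Ctsg (17.6%, 2.14) were above them per cell. The deeper cluster 8 (479 cells, median 38385 UMIs), found only under the Mll4 label and led by histone genes and Slc16a11, had 12.7 Prtn3, 7.05 Mpo, 5.40 Ctsg and 1.78 Elane UMIs per cell. Ctsg was high in the mast/basophil-like cluster 16 of the Mll4-labelled library, with a UMI in 86.6% of 546 thinned cells (83.5 to 89.4; median depth of the cluster 5037 UMIs) and 13.4 UMIs per cell, or 644 per 100 Mpo UMIs. That cluster gave 3.79% of the Ctsg UMIs of its library. Clusters 4, 5, 11, 13, 15 and 16 had T or innate lymphoid, plasma, dendritic, macrophage or mast markers. With them left out of every library, the member median of the Mll4-labelled library was 4.21 in place of 3.91. This setting was added after seeing the data, and it kept the B-lineage-like clusters 14 and 18 to 20.

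**Figure D5:**
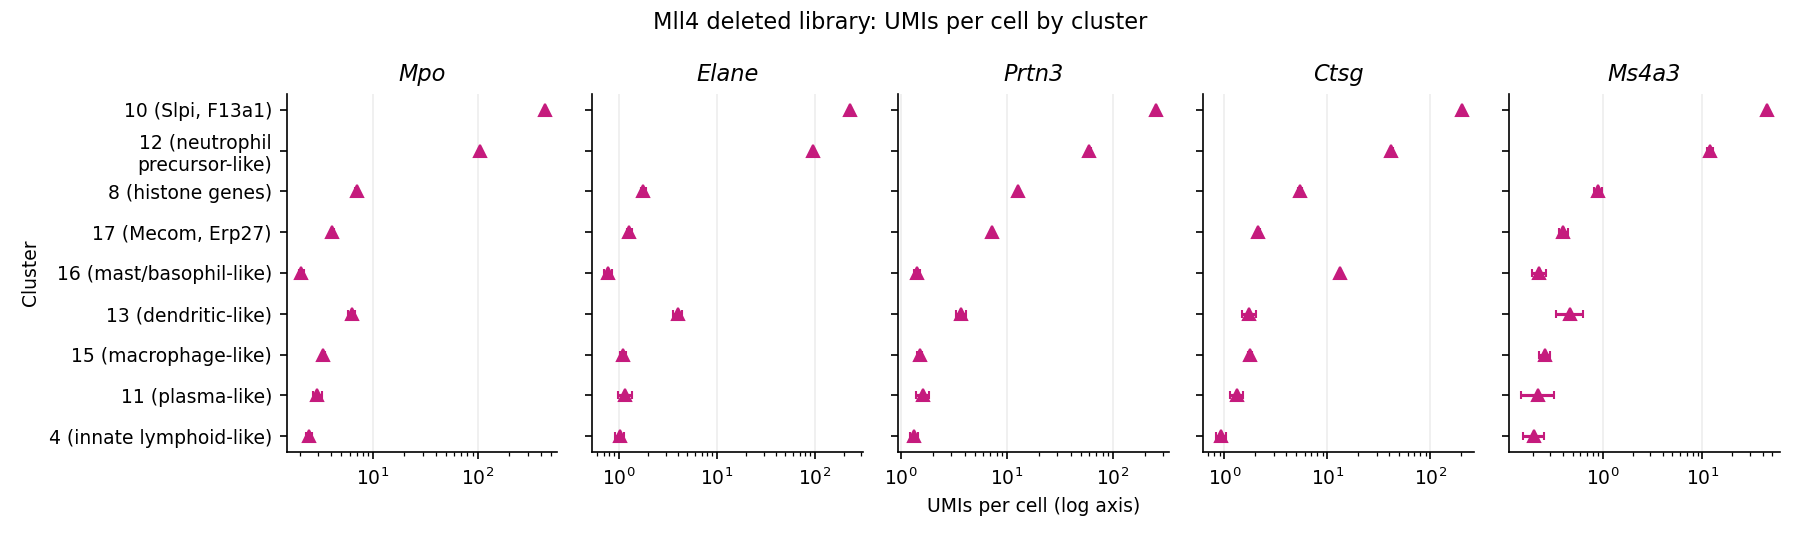
UMIs per cell (log axis, exact Poisson intervals) of each gene in 9 clusters of the Mll4 deleted library. Clusters 10 and 12 lie far to the right for all genes, and the plasma-like and innate lymphoid-like cells were taken as background. Ctsg alone stands out in the mast/basophil-like cluster at 13.4 UMIs per cell.

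In the Mll3/4-labelled library 34 of 4748 cells held any member UMI. Of the 2030 member UMIs 88.9% lay in 4 cells, which had 21627 to 51982 UMIs in all. One of them, a cell of cluster 10 in the MPP3 gate, held 504 of 575 Mpo, 491 of 494 Elane, 333 of 653 Prtn3, 202 of 258 Ctsg and 39 of 50 Ms4a3 UMIs. It had 0 UMIs of Cd79a, Vpreb1 and Ebf1, which most cells of its library carried (99.2% to 99.6% of all cells). Without this cell the levels were 1.40 CPM for Mpo, 0.0591 for Elane, 6.31 for Prtn3, 1.10 for Ctsg and 0.217 for Ms4a3, and the log2 ratios to control -6.95, -10.82, -6.38, -7.13 and -6.82. No such cell shared its barcode with another library.

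The 30 cells of that library outside clusters 18 to 20 had 778 CPM of Prtn3 (719 to 840) and 19 of them had a Prtn3 UMI. In those 30 cells Mpo was at 692 CPM (636 to 751), Elane at 596 (544 to 651), Ctsg at 310 (273 to 351) and Ms4a3 at 60.6 (45 to 79.9). Only 6, 2, 4 and 4 of them had a UMI of these genes. The cell of cluster 10 described above held 504 of their 571 Mpo and 491 of their 492 Elane UMIs, so these are not levels shared by the 30 cells. The 4718 cells of clusters 18 to 20 held 4 Mpo, 2 Elane, 11 Prtn3, 2 Ctsg and 0 Ms4a3 UMIs among 49967084 UMIs. For Ms4a3, 0 of 4718 cells allows a share of up to 0.0636%, and for Prtn3, with 6 cells, the share was 0.127% (0.0467 to 0.277). The widespread Prtn3 of control cells was thus also missing from these cells. They carried summed B-lineage markers at the library level of 11300 CPM, against 56.5 in the control, and whether other cell content accounts for the lower library levels was not tested.

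Genes with related roles were counted from fixed lists. Of the granule processing and content list, 16 of 18 genes passed the minimum of 20 CPM, and 9 were at least 2-fold higher in the Mll4-labelled library, led by Slpi, a protease inhibitor (16.3 to 571 CPM, log2 5.13), Alas1, the first enzyme of haem synthesis (25.8 to 319 CPM, 3.63), Lyz2, lysozyme (286 to 1373 CPM, 2.26), and Ctsc, the protease that activates granule proteases (36.5 to 123 CPM, 1.75). In the Mll3/4-labelled library 9 of 16 were at least 2-fold lower, among them Nkg7 (184 to 0.847 CPM), Serpinb1a, an inhibitor of these proteases (223 to 2.95 CPM), and Prss57, a further granule protease next to Elane and Prtn3 (27.0 to 0.374 CPM). In the Mll3-labelled library Serpinb1a (97.7 CPM, log2 -1.19) and Nkg7 (85.5 CPM, -1.11) were the 2 of 16 past 2-fold, both lower. List medians were 0.09, 1.12 and -1.46.

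The neutrophil precursor list, which holds S100a8 and S100a9 beside genes of later granules, did not follow the members in the Mll3-labelled library. There 4 of its 7 genes above the minimum were at least 2-fold lower and 0 higher, with S100a8 at 76.7 against 235 CPM and Camp at 64.6 against 151 CPM. In the Mll4-labelled library 7 of 7 were higher (S100a8 at 2292 CPM, median log2 2.47), and in the Mll3/4-labelled library 7 of 7 were lower (median -8.18). Of the myeloid regulators, 10 of 16 passed the minimum. In the Mll4-labelled library 3 of 10 were higher (Cebpb, Irf8 and Id2), and in the Mll3/4-labelled library 5 of 10 were lower. The latter were the ETS factor Spi1 (PU.1, 123 to 6.04 CPM), Cebpb (49.6 to 3.11 CPM), Irf8 (23.3 to 5.55 CPM), the receptor gene Csf3r (37.7 to 0.236 CPM) and Etv6. In the Mll3-labelled library 0 of 10 were past 2-fold. Csf1r and Cebpe, under the minimum by their mean, were at 70.4 against 1.90 and at 28.9 against 5.26 CPM in the Mll4-labelled library.

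Chromosomal neighbours showed whether whole regions moved with the members. Around Elane and Prtn3, 4 of 8 neighbours passed the minimum. Prss57 was higher in the Mll4-labelled library (57.8 against 27.0 CPM, log2 1.10), while Ptbp1 (-0.21) and R3hdm4 (-0.32) lay within 2-fold. In the Mll3/4-labelled library Prss57 and Plppr3 (38.9 to 0.413 CPM) were lower and Ptbp1 (-0.28) and R3hdm4 (-0.65) within 2-fold. Of those under the minimum by their mean, Palm was at 42.4 against 12.9 CPM under the Mll4 label and at 2.05 under the Mll3/4 label (log2 1.72 and -2.65), and Med16 was within 2-fold (-0.11 and -0.58). Next to Mpo, Supt4a was at 148, 138, 111 and 147 CPM and so within 2-fold of the control in every library. Of the Mpo neighbours under the minimum by their mean, Tspoap1 was at 23.1 against 0.846 CPM under the Mll4 label (log2 4.76). Rnf43 was at 8.33 against 0.210 CPM there (log2 5.29). Under the Mll3/4 label their log2 ratios were -1.39 and 1.58. Lpo and Epx were hardly counted in any library. Near Ctsg, the mast cell proteases Cma1 (18 UMIs against 55362) and Mcpt4 (18 against 26375) were higher in the Mll4-labelled library, where the mast/basophil-like cluster lay. Near Ms4a3, Ms4a6c was at 37.5, 24.3, 381 and 1.99 CPM.

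Likeness among genes was measured as Pearson's r of log2(CPM + 1) with the mean of the standardised members over 23 combinations of library and gate, which share libraries and depth, so the values are descriptive. Rab44 came first (0.946), then Igsf6 (0.939), Atp8b4 (0.936), Slpi (0.929), Clec12a (0.924) and Ms4a6c (0.917). Rab44 was at 8.05, 6.53, 53.1 and 0.236 CPM and Igsf6 at 5.28, 6.84, 96.2 and 0.394. Among the members themselves Mpo, Elane, Ctsg and Ms4a3 correlated at 0.964 to 0.993 with each other and Prtn3 at 0.696 to 0.744 with them. Over the 7260 thinned control cells, where counts are sparse, the highest value was 0.319 (Plac8), followed by Igsf6 at 0.240 and Ly6c2 at 0.239.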

How the data were processed

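The authors deposited raw UMI counts per cell barcode for 32285 genes and 6 antibodies in 4 libraries, made with Cell Ranger 6.1.1 on mm10, per the submitters' processing notes, from 10x 3-prime version 3.1 libraries, per the labels' protocols. How barcodes were chosen is not given in the sources used here. Depth was 50792614 to 120700343 UMIs per library after requiring 1000 or more genes and no more than 10% mitochondrial UMIs. Intervals are exact Poisson for sums and Clopper-Pearson for shares, at 95%, and cover counting error only. Ratios to control were taken after adding 0.5 UMIs. A count of 0 was taken to allow 3 UMIs or cells.

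Cells were thinned to 3000 UMIs without replacement (seed 11). Antibody counts were centred log ratios with Gaussian mixture thresholds shared by all libraries. Clusters used 2000 variable genes without the members, 30 components, 15 neighbours and Leiden resolution 0.6 (scanpy 1.11.5, Python 3.11.15), and were named only from fixed markers, with at least 3 raised. Scrublet's threshold called 2, 2, 168 and 0 cells, too few in 3 of 4 libraries, so no doublets were removed in the reported values, and removal of the highest scores was an alternative. Scaling by edgeR and DESeq2 factors was another. Ratios and the split were checked on simulated data. Gates were compared where both libraries had at least 100 cells.

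The members, motifs, lists and named genes (all members, up to 4 genes per list by size of ratio, the 10 most alike genes) were chosen with earlier results of these data known. Genes named only from the first places of a cluster and the neutrophil precursor genes given as examples were chosen after their values were seen. Gene identifiers matched GENCODE M21 for 32158 of 32285 genes, and 5 of 5 members matched RefSeq windows.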

Additional observations from a re-analysis of the deposited data

Results flagged for a closer look

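The Mll4 label went with opposite directions of all 5 members with and without the Mll3 label, although Kmt2d was not clearly lower under either Mll4 label, and with 1 library per group this difference was not tested. On the log2 scale the Mll4-labelled library stood above the control by 4.44 for Mpo, 4.01 for Elane, 2.11 for Prtn3, 3.53 for Ctsg and 3.91 for Ms4a3. The Mll3/4-labelled library stood against the Mll3-labelled one at -4.11, -4.14, -5.75, -5.12 and -4.64. The differences between both were -8.56 for Mpo, -8.14 for Elane, -7.86 for Prtn3, -8.65 for Ctsg and -8.55 for Ms4a3.

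Barcodes that failed the filter carried all 5 members under the Mll4 label, and 3 of 5 under the Mll3 label, at levels above those of barcodes failing in the control. In the 2909 barcodes removed from the Mll4-labelled library Mpo was at 7156 CPM, Elane at 2174, Prtn3 at 2168, Ctsg at 2995 and Ms4a3 at 359.3, against 990, 151, 335, 658 and 31.1 in the 408 removed from the control. In the 459 removed from the Mll3-labelled library Elane was at 233.9, Prtn3 at 564.8 and Ctsg at 783.1 CPM, while Mpo (824) and Ms4a3 (24.8) were below the control. In the 388 removed from the Mll3/4-labelled library 1 Mpo UMI and 0 UMIs of the other members were counted.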

How the results depend on the processing

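No paired analysis was possible because each genotype had 1 library. All values here are log2 ratios to control. Of 50 member values per library under other scalings, weights and filters, 50 of 50 kept their sign under the Mll4 label, 50 of 50 under the Mll3/4 label and 49 of 50 under the Mll3 label. These settings include leaving out 6 clusters and leaving out 1 cell of the Mll3/4-labelled library. Leaving out that cell cannot change a value of the other labels, so their counts include values fixed in advance. The member median of the Mll3-labelled library, 0.18, was 0.084 with TMM, 0.085 with median-of-ratios scaling, 0.10 without mitochondrial and ribosomal protein genes, 0.23 with equal weight per cell, 0.22 without the highest doublet scores and 1.07 with gates weighted to control shares. The Mll4-labelled median, 3.91, was 3.71 with equal weight, 3.47 with weighted gates, 3.32 with the stricter filter, 3.84 without the highest doublet scores and 4.21 without the 6 clusters. The Mll3/4-labelled median, -4.68, was -6.25 with equal weight, -2.35 with weighted gates and -6.95 without 1 cell. Leaving out the 6 clusters or the 1 cell was chosen after seeing the data.

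In the MPP3 gate the Mll3-labelled median, 1.09, was 1.32 without centring, 1.04 with thresholds per library, 0.99 with the stricter filter, 1.13 without the highest doublet scores and 1.19 without the 6 clusters. The Mll4-labelled median, 3.52, was 3.25, 3.41, 2.96, 3.46 and 3.83 in that order. The Mll3/4-labelled median, -2.12, was -1.58 without centring, -3.03 with thresholds per library and -4.56 without the 1 cell.

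The median share part of the Mll3-labelled library, -0.48, was -0.21 at 2 or more and 0.54 at 5 or more UMIs, and its per-cell part, 0.54, was 0.28 at 5 or more. In the Mll4-labelled library the share part, 2.46, was 3.14 at 2 or more, 4.09 at 5 or more, 2.77 at 1500 and 2.18 at 6000 UMIs per cell and 2.01 with the stricter filter. Its per-cell part, 1.25, was 0.77, 0.15, 0.89, 1.45 and 1.04 in that order, and 1.55 without the 6 clusters. In the Mll3/4-labelled library the per-cell part, 0.07, was -1.19 without the 1 cell, and at 5 or more UMIs no median exists because Ms4a3 had no such cell.

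At minimums of 5 and 100 CPM in place of 20, genes at least 2-fold higher numbered 187 and 24 in place of 67 (Mll3-labelled), 652 and 94 in place of 305 (Mll4-labelled), and 810 and 92 in place of 372 (Mll3/4-labelled). Genes 2-fold lower numbered 97 and 9 in place of 28, 480 and 37 in place of 201, and 1387 and 118 in place of 641. More or fewer genes were tested there.

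Among single values at least 2-fold from the control as reported above, directions turned for 8. Smaller values that turned are not in that count, such as share parts of the Mll3-labelled library at 5 or more UMIs. Without centring, the Mll3-labelled HSC gate turned to -0.51 for Mpo, -0.58 for Elane and -0.64 for Ctsg, and the MPP1 gate to -0.35 for Mpo and -0.32 for Ctsg. Elane in the HSC gate was -0.15 with thresholds per library and -0.45 with the stricter filter. The per-cell part of Mpo in the Mll3/4-labelled library was -1.26 without the 1 cell. The cause was not tested, save that leaving out cells or genes shrinks what is counted. The Mll3/4-labelled shares rest on 2 to 15 expressing cells per gene, and thinning left out 134 cells under the Mll4 label and 14 to 33 in the other libraries.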
